A study of Homo sapiens with 4 samples.

Results

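Protein arginine methyltransferases (PRMTs) transfer methyl groups from S-adenosylmethionine to arginine side chains. The 10 genes described here were PRMT5, its cofactors WDR77, CLNS1A, RIOK1 and COPRS, and the other methyltransferases PRMT1, CARM1, PRMT3, PRMT6 and PRMT7. They were taken from a fixed list of gene names, and each peak went to a gene by its identifier and strand. All 10 had at least 1 peak in a list of RNA regions recovered with PRMT5, and together they held 27 of its 18993 peaks and 10 of its 8478 genes.

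PRMT5 makes symmetric dimethylarginine, and works in a complex with the WD-repeat protein WDR77, also called MEP50. CLNS1A (pICln) and RIOK1 are alternative partners that bring different substrates to this complex, and CLNS1A serves the methylation of Sm proteins before spliceosomal particles are assembled. COPRS binds PRMT5 on chromatin. PRMT1, CARM1 (PRMT4), PRMT3 and PRMT6 make asymmetric dimethylarginine, PRMT1 being the main enzyme of this kind in most cells, and PRMT7 makes monomethylarginine. The study asked which RNAs are bound by the PRMT5 protein, so the values below concern the transcripts of these genes in a PRMT5 immunoprecipitate and say nothing of the proteins.

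RNA came from the human leukemic T cell line Jurkat. All cells, those for input included, had been stimulated with PHA (phytohemagglutinin, a T cell mitogen) for 48 h and crosslinked with UV light, at 264 nm and 400 mJ by the labels. The labels give 2 PRMT5 RIP libraries and 2 input libraries from such cells, and the design text of the series names Flag as the target of the immunoprecipitation. The construct that carries the tag, and whether PRMT5 was overexpressed from it, are not given in the sources used here. Each peak has 1 pooled value in RPM, a read count scaled to the size of the library, for PRMT5 RIP and 1 for input, so no spread between replicates and no test can be given, and depth per library is unknown. Over the whole list RPM summed to 755969 in PRMT5 RIP and to 489424 in input. Of 10 T cell markers 5 were matched in the list (CD3D, CD247, LCK, ZAP70 and CD28), with summed input from 11.7 to 417 RPM, and the other 5 had no strand entry and were not looked up. Among 5 B cell markers CD79A was matched, with 37.3 RPM in input, 3 had no strand entry and to 1 no peak was matched. Among 5 myeloid markers CSF1R was matched, with 29.5 RPM, 2 had no strand entry and to 2 no peak was matched. A gene without a match can still have a peak, since not all identifiers of the list were given a symbol.

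At all 27 peaks RPM was higher in PRMT5 RIP than in input, as at 96% of all peaks. In the list 98.1% of all peaks had a deposited log2FC above 0, so this direction is largely set by how a peak entered the list and is no result about these genes. An FDR of the authors' peak caller stood beside 26 of the 27 peaks, from 1.65e-37 to 1.42e-09. Its range over the whole list was not computed. It was 2.19e-15 also at a PRMT5 peak with 34.1 against 33.6 RPM. The log2 ratio of PRMT5 RIP over input, with 0.01 RPM added to both, ran from 0.02 to 2.69 over the 27 peaks. Its median was 1.00, against 1.10 over all peaks of the list. A ratio of at least 2-fold was reached by 14 of the 27 peaks, and by 55.7% of all peaks in the list. When RPM was summed over the peaks of each gene, 4 of the 10 genes reached 2-fold, against 62.3% of all genes in the list. The 4 genes were PRMT6, CARM1, PRMT3 and PRMT7, and all 5 genes of PRMT5 and its cofactors were below it, as was PRMT1. This split holds for summed RPM. By the median over its peaks COPRS also reached 2-fold, with a log2 ratio of 1.57. Counted by peak, 3 of 15 in PRMT5 and its cofactors and 11 of 12 in the other methyltransferases reached 2-fold, a difference that was not tested. The median log2 ratio was 0.84 over the 10 genes and 1.20 over all genes. The counts depend on how low values are treated: with 1 RPM added, only 1 of the 27 peaks and 1 of the 10 genes, PRMT6, reached 2-fold, beside 18.5% of all peaks and 30% of all genes. By the log2FC of the authors' peak caller, 23 peaks and 9 genes had at least 1, beside 91.2% of all peaks and 94.9% of all genes. This log2FC exceeded the log2 RPM ratio by 0.79 in the median over the 27 peaks, and by 0.79 also over all peaks of the list. For a gene this log2FC was the median over its peaks, whereas RPM was summed.

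PRMT5, listed as ENSG00000100462.16, lies on the minus strand of chromosome 14 from 22920529 to 22929376 (GRCh38), and had 4 peaks on that strand. Of the 10 genes its transcript had the second highest summed RPM and the lowest ratio, with 86.2 RPM in PRMT5 RIP against 78.5 in input, a ratio of 1.10-fold. It ranked 551 by summed input and 8134 by ratio among the 8478 genes. Per kilobase of peak it had the highest value of the 10, with 35.9 RPM per kb in PRMT5 RIP against 32.7 in input. This order depends on the span of the peaks, since exons were not analysed and a wide peak can include introns.

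The 4 peaks of PRMT5 fell into 2 kinds. The peak at the annotated start, from 22929234 to 22929383, had 9.75 RPM in PRMT5 RIP against 5.29 RPM in input, a ratio of 1.84-fold. The widest, 1626 nt from 22927558 to 22929183, had 38.7 RPM against 37.6 RPM, or 1.03-fold. The densest, 472 nt from 22924040 to 22924511, had 72.2 RPM per kb in PRMT5 RIP, with 34.1 RPM against 33.6 RPM in total, or 1.01-fold. The last, from 22920900 to 22921049 near the 3′ end, had 3.61 RPM against 1.89 RPM, or 1.91-fold. The end peaks thus had ratios near 2-fold at lower signal, and both inner peaks lay near 1-fold, with ratios above only 4.63% and 4.30% of the peaks in the list.

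Some peaks reached the annotated starts of genes, and the bases at these starts are printed to show where the 5′-most peak of the list began. Such an edge is set by the peak caller and need not be the first base with signal. Each line has 20 bases before a start in the RefSeq promoter table (GRCh38.p14) and 30 bases from it. This start is the outermost base of the gene in all lines but that of PRMT1, where it is base 49677271 inside the gene. The lines run 5′ to 3′ on the strand of the gene, and capitals mark the bases inside the peak. They lie at chr14:22929347-22929396, chr6:7389788-7389837, chr1:111449227-111449276, chr11:77637765-77637814, chr11:20387696-20387745 and chr19:49677251-49677300 in this order.
PRMT5: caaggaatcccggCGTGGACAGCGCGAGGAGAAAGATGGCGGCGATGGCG
RIOK1: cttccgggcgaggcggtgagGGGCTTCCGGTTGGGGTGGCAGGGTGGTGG
WDR77: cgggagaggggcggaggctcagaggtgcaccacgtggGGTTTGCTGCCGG
CLNS1A: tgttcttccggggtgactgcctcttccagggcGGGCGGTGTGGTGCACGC
PRMT3: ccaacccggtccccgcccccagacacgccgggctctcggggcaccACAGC
PRMT1: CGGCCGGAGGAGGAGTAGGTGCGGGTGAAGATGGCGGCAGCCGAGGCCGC

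In RIOK1 the peak and the gene began at the same base, while in WDR77, CLNS1A and PRMT3 the peak began 12 to 25 nt inside the gene and in PRMT5 7 nt before it. All 3 RIOK1 peaks began at steps of 25 nt from the start, at 0, 75 and 125 nt, as did the 5′-most PRMT3 peak at 25 nt. The PRMT6 peaks, at 125, 300, 425 and 750 nt, and the 5′-most PRMT7 peak, at 13725 nt, also did. The other PRMT3 peak, at 419 nt, the other PRMT7 peaks, at 41259 and 42469 nt, and both CARM1 peaks did not. The printed peaks of WDR77, CLNS1A and PRMT5 did not begin at such steps. Whether the peak caller fixes edges by steps from an annotated start was not tested. In COPRS the start in the table is base 31858962, inside the gene. Its 5′-most peak also began at the outermost base of the gene, but it ended at 31859059, before the start in the table. In PRMT1 the peak began 1066 nt inside the gene and did not reach its outermost base, but it covered the whole stretch shown around the inner start. The letters AAGATGGCG, chosen after these lines were seen and searched on both strands, occurred in the 300-base windows of PRMT5 and PRMT1 and in no other of the 12 windows of the 10 genes, and in 1.75% of all 35116 windows. This is a match of letters only.

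WDR77, listed as ENSG00000116455.14, lies on the minus strand of chromosome 1 from 111439890 to 111449256. It had 7.92 RPM in PRMT5 RIP against 4.65 in input over 4 peaks, or 1.70-fold. A 25-nt peak at the start had 0.27 against 0.17 RPM, or 1.59-fold. The next, 1642 nt from 111447548 to 111449189, held most of the signal, with 4.89 against 2.22 RPM, and its 2.20-fold was the only ratio of at least 2-fold in this gene. Both peaks in the 3′ part of the gene were lower, at 1.60 against 1.23 RPM (1.30-fold) and 1.16 against 1.03 RPM (1.13-fold). Per kilobase of peak, summed input was 1.65 RPM per kb in WDR77 and 32.7 RPM per kb in PRMT5, whose proteins form one complex. These densities are over the whole span of the peaks, with exons not analysed, so they do not compare transcript levels. Whether RNA of the tagged construct adds to the PRMT5 value was not tested.

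CLNS1A, listed as ENSG00000074201.9 on the minus strand of chromosome 11 from 77614530 to 77637794, was the gene closest to PRMT5 in ratio, with 13.1 RPM in PRMT5 RIP against 11.3 in input, or 1.16-fold. Its peak at the start was 7965 nt wide and had 10.1 against 8.40 RPM. Its other peak, 721 nt in the middle of the gene, had 3.02 against 2.91 RPM, or 1.04-fold. Neither peak came near 2-fold.

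RIOK1, an atypical kinase, is listed as ENSG00000124784.9 on the plus strand of chromosome 6 from 7389808 to 7418037. It had 3 narrow peaks, all within the outermost 250 nt of a gene of 28230 nt, with 2.06 RPM in PRMT5 RIP against 1.13 in input in sum, or 1.82-fold. The 50-nt peak at the start had 0.35 against 0.09 RPM, or 3.89-fold. The RPM values are rounded to 0.01, and this rounding alone allows 3.63-fold to 4.18-fold. The peak of 25 nt behind it had 0.24 against 0.13 RPM (1.85-fold), and the one of 125 nt had 1.47 against 0.91 RPM (1.62-fold). The ratio thus fell from each of the 3 peaks to the next, away from the start.

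COPRS, listed as ENSG00000172301.11, lies on the minus strand of chromosome 17 from 31851871 to 31859244. In sum it reached 24.1 RPM in PRMT5 RIP against 13.7 in input, or 1.76-fold. Its 2 peaks were far apart in ratio. The 186-nt peak at the outermost base of the gene, from 31859059 to 31859244, had 6.68 against 1.03 RPM, or 6.49-fold. Its log2 ratio, 2.69, was the largest of the 27 peaks and above 95.7% of the peaks in the list. The other peak, 6588 nt wide and reaching over most of the gene, had 17.4 against 12.6 RPM, or 1.38-fold. The summed ratio of COPRS lay close to that of the wide peak, which held 72.3% of its RPM in PRMT5 RIP.

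Of the other methyltransferases, PRMT1 had by far the most signal. Listed as ENSG00000126457.22 on the plus strand of chromosome 19 from 49676153 to 49688447, it had 1 peak of 11224 nt, from 49677219 to 49688442, with 387 RPM in PRMT5 RIP against 259 in input, or 1.50-fold. This was 72.6% of the PRMT5 RIP signal of all 10 genes, and PRMT1 ranked 238 by summed PRMT5 RIP RPM in the list. Per kilobase of peak it was close to PRMT5, with 34.5 RPM per kb in PRMT5 RIP against 35.9. Exons were not analysed here, so these densities are over the whole span of a peak. The peak carried 2 identifiers and had no FDR in the authors' table. The hairpin of MIR5088, on the same strand from 49682117 to 49682195, lies inside it and has no value of its own.

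CARM1, a coactivator that methylates histone H3, is listed as ENSG00000142453.12 on the plus strand of chromosome 19 from 10871553 to 10923075. In this gene of 51523 nt both peaks lay at the 3′ end, beyond 99.5% of its length. The peak of 150 nt had 1.11 against 0.35 RPM, or 3.17-fold. The peak of 25 nt had 0.18 against 0.07 RPM, or 2.57-fold, with 2.33-fold to 2.85-fold allowed by rounding. Both shared their bases with a peak on the opposite strand, given below.

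PRMT3, a cytosolic enzyme whose best known substrate is a ribosomal protein, is listed as ENSG00000185238.13 on the plus strand of chromosome 11 from 20387716 to 20509338. It had the lowest summed RPM of the 10, with 1.06 in PRMT5 RIP and 0.40 in input, or 2.65-fold. Its peak at the start had 0.85 against 0.30 RPM, or 2.83-fold. The peak next to it had 0.21 against 0.10 RPM over 1614 nt. That peak lay exactly at the 2-fold limit after 0.01 was added, and rounding alone allows 1.95-fold to 2.26-fold.

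PRMT6, a nuclear enzyme that methylates histone H3, is listed as ENSG00000198890.9 on the plus strand of chromosome 1 from 107056674 to 107059294. It had the highest ratio of the 10 genes, 3.36-fold, with 4.74 RPM in PRMT5 RIP against 1.41 in input, and ranked 2015 by ratio in the list. From the 5′ end its 4 peaks had 1.30 against 0.33 RPM, 0.51 against 0.18 RPM, 1.61 against 0.50 RPM and 1.32 against 0.40 RPM. All 4 lay between 2.83-fold and 3.94-fold, at a density from 6.60 to 8.67 RPM per kb in PRMT5 RIP, and within the 36.2% of the gene nearest to its start. The log2 ratios of its peaks, from 1.45 to 1.95, were closer together than those of PRMT5, WDR77, RIOK1 and PRMT7, the other genes with over 2 peaks. The peaks of PRMT5, WDR77 and PRMT7 reach into the 3′ part of the gene and those of PRMT6 do not, so evenness along the whole gene is not shown.

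PRMT7, listed as ENSG00000132600.18, lies on the plus strand of chromosome 16 from 68311019 to 68360870. Summed over 3 peaks, its transcript gave 5.91 RPM in PRMT5 RIP against 2.56 in input, or 2.31-fold. Its 5′-most peak, 25 nt that began 13725 nt into the gene, had 0.13 against 0.02 RPM. The 6.50-fold of that peak is poorly determined, since rounding alone allows 5-fold to 9-fold. The wide peaks toward the 3′ end, of 1135 nt and 3298 nt, had 1.47 against 0.61 RPM (2.41-fold) and 4.31 against 1.93 RPM (2.23-fold). The gene therefore lay above 2-fold also by its better covered peaks.

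**Figure D1:**
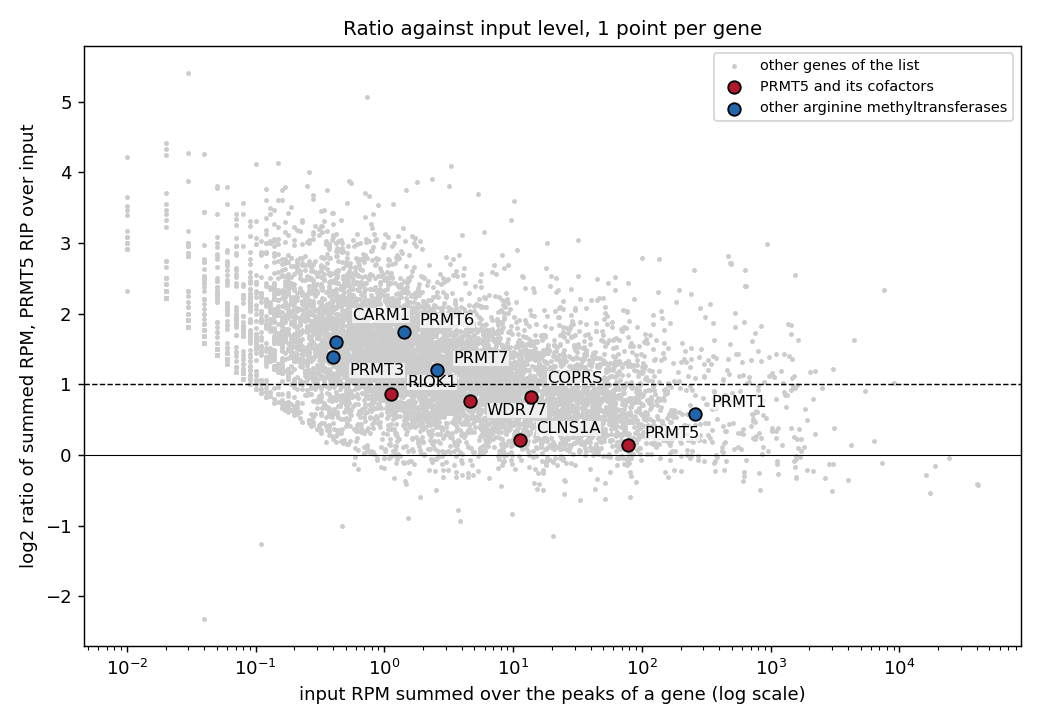
Log2 ratio of summed RPM, PRMT5 RIP over input, against summed input RPM, with 1 point per gene and the 2-fold limit dashed; 5 genes with an input of 0 are not drawn. CARM1, PRMT3, PRMT6 and PRMT7 lie above the line at summed inputs from 0.40 to 2.56 RPM, and the 4 members with the highest input, PRMT1, PRMT5, COPRS and CLNS1A, lie below it.

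The ratio moved with the level in input over the whole list. When the 8478 genes were divided into 4 classes of summed input RPM, 89.1% of the genes in the lowest class, up to 0.52 RPM, reached 2-fold. In the next classes the share was 74.1%, 54.3% and, from 11.3 RPM upward, 31.7%. CARM1 and PRMT3 were in the lowest class, and both reached 2-fold. RIOK1 and PRMT6 were in the next, where PRMT6 did and RIOK1 did not, and of WDR77 and PRMT7 in the third class PRMT7 did. PRMT5, CLNS1A, COPRS and PRMT1 were in the highest class, with no gene at 2-fold. The part of the input level in the difference between the cofactors and the other methyltransferases was not tested. Without peaks under 0.5 RPM in input, CARM1 and PRMT3 had no peak left, and 2 of the 8 other genes, PRMT6 and PRMT7, were at 2-fold or above, beside 50.6% of all genes at this setting. PRMT6 then kept only its peak with 1.61 against 0.50 RPM, which lies at the limit itself.

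Peaks on the opposite strand overlapped 4 of the 27 peaks, or 2 of the 10 genes, where 18.1% of all peaks in the list shared a base with such a peak. In PRMT5 the overlapping peaks belonged to ENSG00000237054, which has 3 peaks on the plus strand, and they touched the RefSeq long noncoding RNAs PRMT5-AS1 and LOC124903285. The 3′-most peak of PRMT5 had a near copy there, from 22920897 to 22921046, which shared 98% of its bases and had 3.59 against 1.85 RPM where PRMT5 had 3.61 against 1.89 RPM. The library kit keeps strand, but how strand was used in counting is not stated, so reads of PRMT5 and of the opposite transcript cannot be told apart in this peak. The densest PRMT5 peak shared 79% of its bases with a plus-strand peak of 1018 nt that had 17.4 against 19.3 RPM, which is less in PRMT5 RIP than in input. Both PRMT5 peaks near the start, and the other 8 genes, had no such overlap. Without the overlapped peaks PRMT5 had a log2 ratio of 0.17, beside 0.14 with them.

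In CARM1 every peak was overlapped, so no value of this gene was free of it. The plus-strand peaks at its 3′ end lay inside or almost inside a minus-strand peak of YIPF2, a membrane trafficking gene that runs toward CARM1, from 10922835 to 10923034. It had 1.47 RPM in PRMT5 RIP against 0.49 in input, or 3-fold, where the wider CARM1 peak had 1.11 against 0.35 RPM, or 3.17-fold. The YIPF2 peak covered 97.3% of the wider CARM1 peak and all of the narrow one. The enrichment listed for CARM1 is therefore not separate from that of YIPF2.

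Both WDR77 and PRMT7 have a gene that starts close by in the other direction. ATP5PB, a subunit of ATP synthase, had a plus-strand peak 233 nt from the start of WDR77, with 16.5 against 5.30 RPM, or 3.12-fold. SLC7A6OS had a minus-strand peak 89 nt from the start of PRMT7, with 5.55 against 0.91 RPM, or 6.10-fold. These peaks did not overlap those of the members, and both genes were named after their values were seen.

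**Figure D2:**
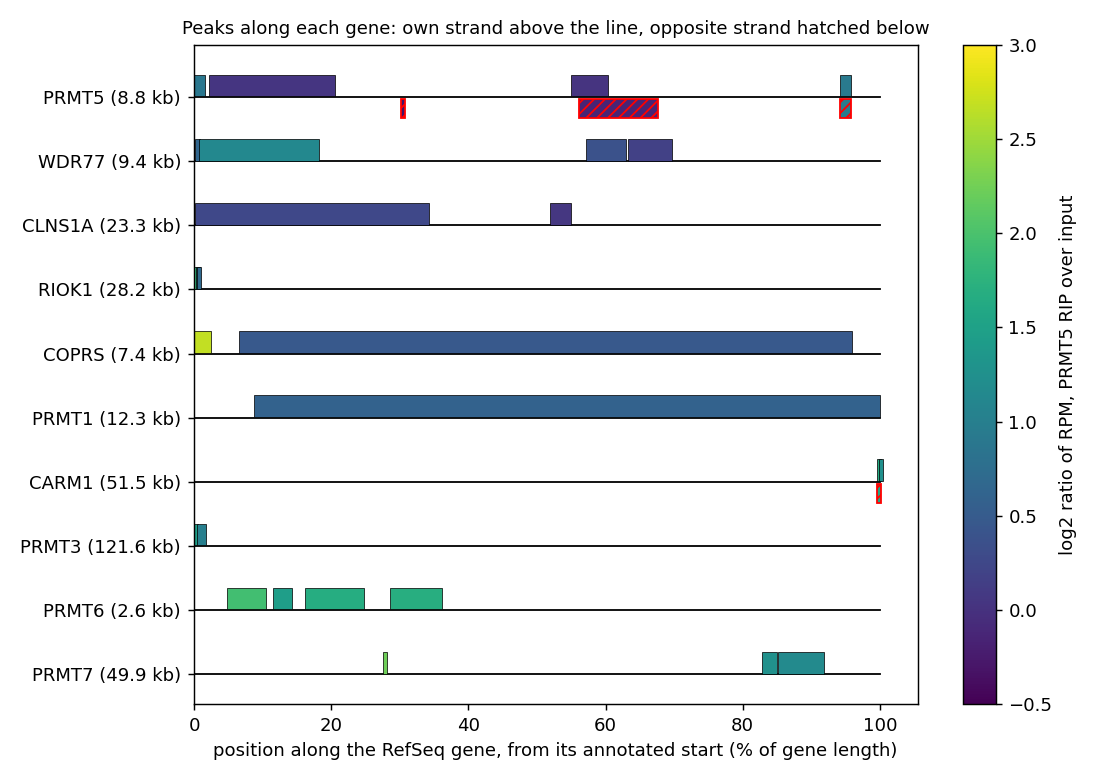
Position of each peak along its gene, in percent of the RefSeq gene length from the annotated start, coloured by log2 ratio; peaks under 0.6% of the length are drawn at that width. Own-strand peaks stand above each line and opposite-strand peaks, hatched, below it. Opposite-strand peaks appear in PRMT5 and at the 3′ end of CARM1 only, and the largest ratio is at the 5′ end of COPRS.

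The 5′-most peak began within 100 nt of the outermost base of the gene in 6 of the 10 genes (PRMT5, WDR77, CLNS1A, RIOK1, COPRS and PRMT3), and within 125 nt in PRMT6. The share over all genes of the list was not computed, so this count is not read as a trait of these genes. In 8 of the 9 genes with several peaks the 5′-most peak had a higher log2 ratio than the 3′-most, and over all such genes in the list this held for 69.7%. PRMT5 was the exception, with 0.88 at the 5′ end and 0.93 at the 3′ end. The difference was largest in COPRS, from 2.69 to 0.46, followed by RIOK1, from 1.85 to 0.69, and PRMT7, from 2.22 to 1.15. It was smallest among the 8 in CLNS1A, at 0.21. The median difference was 0.47 over the 9 genes and 0.41 over all genes with several peaks. In RIOK1, PRMT6 and PRMT3 both end peaks lay in the 5′ part of the gene, and in CARM1 at the 3′ end, so the comparison does not span those transcripts.

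**Figure D3:**
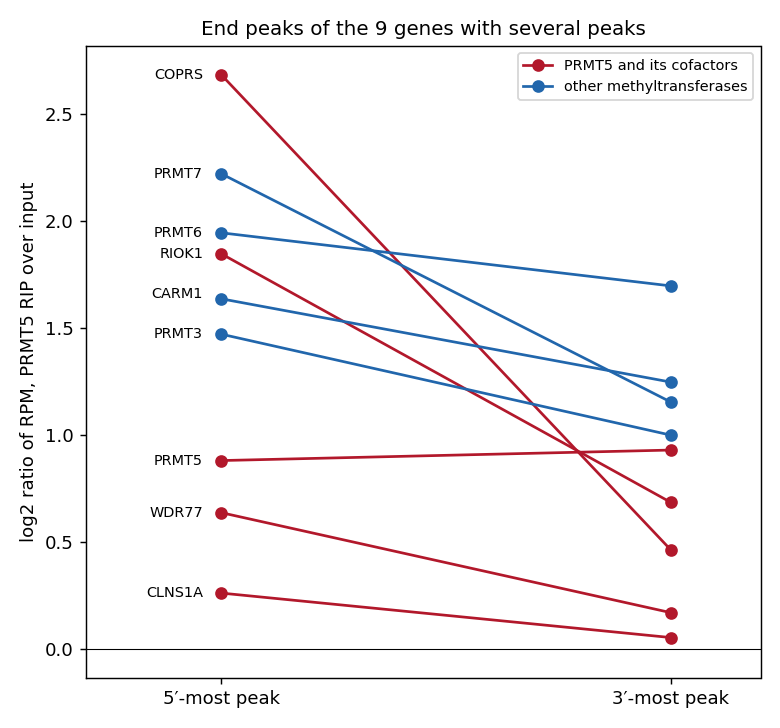
Log2 ratio of RPM, PRMT5 RIP over input, in the 5′-most and the 3′-most peak of the 9 genes with several peaks, joined per gene. All lines but that of PRMT5 fall from left to right, and that of COPRS falls from 2.69 to 0.46.

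Genes that act with the methyltransferases were described from 5 lists. Of the 5 further arginine methyltransferases or candidates, PRMT2 had 28.3 RPM in PRMT5 RIP against 16.2 in input (1.75-fold), METTL23 had 5.19 against 2.04 RPM (2.54-fold), and no peak was matched to PRMT8, PRMT9 or NDUFAF7. The SMN complex receives the Sm proteins that PRMT5 has methylated. Of its 10 genes 6 were matched, and 2 had no strand entry and were not looked up. A ratio of 2-fold was reached by 5 of the 6, beside 62.3% of all genes, and their median log2 ratio was 1.28. Its highest ratios were 2.17 in GEMIN2 and 1.50 in DDX20, and its lowest were 0.44 in STRAP and 1.12 in GEMIN7 on the log2 scale. Summed input was 0.17 RPM in GEMIN2, 0.47 in DDX20, 19.9 in STRAP and 8.19 in GEMIN7. The share of genes at 2-fold fell with input over the whole list, and the lists were not matched for input.

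In S-adenosylmethionine metabolism, which supplies the methyl donor, 7 of 8 genes were matched and 2 of the 7 reached 2-fold, beside the same 62.3%. The median log2 ratio was 0.66. MAT2B, a regulatory subunit of the enzyme that makes S-adenosylmethionine, had the highest log2 ratio, 2.35, from 0.50 against 0.09 RPM, followed by the methionine synthase MTR with 1.69. The lowest were the spermidine synthase SRM with 0.24 and AHCY, which removes S-adenosylhomocysteine, with 0.28. The catalytic subunit MAT2A had 11.1 against 8.28 RPM, or 1.34-fold.

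Among readers of methylarginine and enzymes proposed to remove it, 3 of 6 genes were matched and all 3 reached 2-fold, where 62.3% of all genes did. SMNDC1, a Tudor domain splicing factor, had a log2 ratio of 2.08, JMJD6 had 1.46 and SND1 had 1.06. Among regulators and substrates of the methyltransferases, 11 of 15 were matched, and 2 had no strand entry. Of the 11, 6 reached 2-fold, again beside 62.3% of all genes, with a median log2 ratio of 1.11. E2F1, a transcription factor that PRMT5 and PRMT1 methylate, had 9.50 against 1.18 RPM, or 8.05-fold, followed by the poly(A)-binding protein PABPN1 with a log2 ratio of 1.72. The lowest log2 ratios were 0.25 in NCL (nucleolin), to which RIOK1 directs PRMT5, and 0.43 in PABPC1. All 29 matched genes of the 5 lists had more summed RPM in PRMT5 RIP than in input, as did 97.7% of all genes, a direction largely set by the list itself. Across all genes of the list the median log2 ratio was 1.20, so the medians of these lists lay on both sides of it.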

How the data were processed

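The authors deposited 1 peak list for 2 PRMT5 RIP and 2 input libraries. Per the labels, fastp, HISAT2 and the build hg38 were used; versions, the peak caller and the annotation are not given in the sources used here. The deposited RPM values are pooled per group and rounded to 0.01. The deposited log2 fold change and FDR (an adjusted p-value), from the authors' peak caller, compare PRMT5 RIP with input at a peak; how its libraries were scaled is not stated.

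Peaks were assigned to their first-listed identifier, of 1638 peaks with several. Symbols came from a gene table of the study's supplement (CLNS1A) or from the 1 RefSeq gene of GRCh38.p14 on the same strand that all peaks of an identifier touched (the other 9), with small RNA genes set aside; 6055 of 8478 identifiers were named. Strands and start sequences came from the RefSeq promoter table. Starts were raised by 1. Ratios were log2((PRMT5 RIP + 0.01) / (input + 0.01)); 2-fold means at least 1. RPM per kb is RPM over peak width. An overlap is at least 1 shared base. Sums and overlaps were checked on simulated data. Members and lists were chosen with earlier results of these data known. In each of the 5 lists the 2 highest and 2 lowest genes are named, and MAT2A was named after its value was seen. Python 3.11.15, pandas 2.3.3 and numpy 2.4.6 were used.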

Additional observations from a re-analysis of the deposited data

How the results depend on the processing

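No paired analysis was possible because the list holds 1 pooled value per group at each peak; leaving out replicates could not be done either. All member genes kept a log2 ratio above 0 with 0.1 or 1 RPM added, and 9 of 9 did without peaks overlapped on the opposite strand, where CARM1 had none. This outcome was fixed in advance and is no support. RPM was higher in PRMT5 RIP at all 27 peaks, and the same value added to both sides cannot change the sign. Peaks at 2-fold or above, 14 of 27, became 1 with 1 RPM added (18.5% of all peaks), 23 by the deposited log2FC (91.2%), 5 of 16 with at least 0.5 RPM in input (43.8%), and 7 of 14 with a deposited FDR of at most 1e-10 (56.4%). Genes at 2-fold or above, 4 of 10, became 1, 9 and 2 of 8 in the first 3 of these settings, beside 30%, 94.9% and 50.6% of all genes. The deposited log2FC of a gene was taken as the median over its peaks. The median log2 ratio of the member genes, 0.84, was 0.81 and 0.62 with 0.1 and 1 RPM added, 1.82 by the deposited log2FC, 0.73 with at least 0.5 RPM in input, 0.82 without opposite-strand overlap and 1.04 by the median over peaks, beside 1.08, 0.75, 2.06, 1.01, 1.22 and 1.20 over all genes. With 0.1 RPM added, 11 of 27 peaks (43.9% of all) and 4 of 10 genes (55.9%) were at 2-fold or above. Without opposite-strand overlap these were 12 of 23 peaks (56.1%) and 3 of 9 genes (63.8%). With every listed identifier they were 14 of 27 peaks (54.2%) and 4 of 10 genes (59.7%). The deposited FDR limit gave 5 of 8 genes (61.8%), and the median over peaks gave 5 of 10 genes (61.9%). RIOK1 was among the genes at the FDR limit, where only its 3.89-fold peak was left. COPRS was among those by the median over peaks. Input was under 1 RPM at 14 of the 27 peaks. Depth per library is unknown, so the error of a ratio at such levels cannot be given beyond the rounding.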
